A study of Mus musculus with 8 samples.

Results

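Blood vessels are narrowed and widened by a small set of signals that their endothelial cells release or process, and 7 genes that make or process them are described here in tumor endothelial cells (TECs) of mice with and without an endothelial deletion of 1 *Foxf1* allele. The genes *Nos3*, *Edn1*, *Ece1*, *Ace*, *Ptgs1*, *Ptgs2* and *Ptgis* were taken by symbol from the 33641 gene symbols of the deposited tables. Each of the 7 was listed in every library, and each passed the filter on low values.

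Nitric oxide, made from arginine by the synthase NOS3, relaxes the smooth muscle of the vessel wall through soluble guanylate cyclase, whereas endothelin-1, cut from the product of *Edn1* by the protease ECE-1, is a strong constrictor. ACE, a protease on the surface of lung capillaries, makes angiotensin II, which constricts vessels, and breaks down bradykinin, which dilates them. Prostacyclin, a dilator that also keeps platelets from aggregating, is made from arachidonic acid in consecutive steps by a cyclooxygenase (PTGS1 or PTGS2) and by prostacyclin synthase (PTGIS).

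The cells came from lung tumors that grew after Lewis lung carcinoma (LLC) cells, a mouse lung tumor line, had been injected into the left lung of C57Bl/6 mice. At day 21 the tumors were microdissected, FACS was used to sort CD45-CD31+ cells, whose total RNA was sequenced. In the endFoxf1+/- group (Pdgfb-iCreER/Foxf1 fl/+), a tamoxifen-activated Cre recombinase driven by the *Pdgfb* promoter removes exon 1 of 1 floxed *Foxf1* allele, and tamoxifen was given by gavage at 6 to 8 weeks of age. Cells in which this Cre was not active keep both alleles. The other group is named only control in the labels, and the paper describes its control mice as littermates with either the floxed allele or the Cre transgene alone and, for the tumor experiments, as C57Bl/6 wild-type mice, so that the controls' alleles and tamoxifen treatment are not known here for each library. There were 4 control libraries, named C1 to C4, and 4 endFoxf1+/- libraries, named H1 to H4. Values were TPM, the share of a gene's transcripts in a library after division by transcript length, scaled to a total of 1000000. TPM keep no read numbers, so the depth behind each value is unknown.

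The libraries were not alike in their content of endothelial transcripts, and library H3 stood apart. *Foxf1*, the targeted gene, was at 213, 285, 296 and 331 TPM in C1 to C4 and at 177, 203, 14.04 and 105 TPM in H1 to H4, so that the groups did not overlap in TPM. When the mean log2(TPM + 1) of 20 endothelial markers was subtracted in each library they did overlap, with H1, H2 and H4 below every control and H3 inside the control range, and the log2 difference of *Foxf1* was -0.47 (SE 0.63, adjusted p = 0.55 in limma), against -1.68 in TPM (SE 0.72, adjusted p = 0.79 in limma). Set to the mean of the controls, the geometric mean TPM of these 20 endothelial markers was 83.5 to 108% in C1 to C4, 103% in H1, 106% in H2 and 55.9% in H4, but 5.36% in H3. Of the single markers 3 were below and 5 above every control in H1, and 1 was below and 5 above in H2. All 20 of these markers, including *Pecam1* (which encodes CD31, the protein used for sorting), were lowest in H3. The summed TPM of 13 myeloid markers was 1535 to 5282 in control and 2122 to 10424 in endFoxf1+/- libraries, and that of 8 fibroblast markers was 49.6 to 116 against 132 to 1464, both highest in H3. The summed TPM of 10 epithelial markers was highest in C3 (32582) and in H4 (26856), and that of 9 platelet markers was 777 to 1660 in control and 348 to 884 in endFoxf1+/- libraries. The summed TPM of 10 lymphocyte markers was 19.6 to 30.2 in control and 22.3 to 108 in endFoxf1+/- libraries, and that of 9 pericyte and smooth muscle markers was 67.1 to 100.4 against 38.7 to 84.5, lowest in H4 and H3. Among the pericyte and smooth muscle markers, *Cnn1* was at 0 in H4. In H4 the predicted gene *Gm20594* alone took 21.8% of the TPM, against 5.11 to 11.3% in the other libraries, and since TPM share a fixed total, this lowers the TPM of the other genes in H4. In sorted bulk samples, fewer cells of a type and less RNA per cell cannot be told apart.

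To determine whether the vasoactive genes differed in FOXF1-deficient TECs, their levels were compared as log2(TPM + 1) with limma over 14964 genes, and again after subtracting the mean log2 level of the 20 endothelial markers in the same library. None of the 7 genes passed the threshold of 0.05 on either scale after Benjamini-Hochberg adjustment, with adjusted p in limma from 0.47 to 0.98. None had an unadjusted p under 0.05, and none was without overlap between the groups. On the TPM scale limma called 0 of the 14964 genes (0.0%) at an adjusted p under 0.05 and 836 (5.59%) at an unadjusted p under 0.05, while 345 genes (2.31%) were lower and 409 (2.73%) higher in endFoxf1+/- without overlap. On the scale relative to the markers, limma called 1 gene (0.00668%), the estrogen receptor gene *Esr1*, 367 genes (2.45%) had an unadjusted p under 0.05, and 7 (0.0468%) were lower and 1564 (10.5%) higher without overlap.

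Within the endFoxf1+/- group the 7 genes varied by library. In H3, *Nos3*, *Edn1*, *Ece1*, *Ace* and *Ptgis* were at 2.51 to 11.5% of their control means, beside 5.36% for the endothelial markers, while *Ptgs1* was at 75.0% and *Ptgs2* at 199%. In H4 the first 4 of these were at 54.5 to 68.0% of their control means beside 55.9% for the markers, and *Ptgis*, *Ptgs1* and *Ptgs2* were at 108%, 141% and 102%. With *Gm20594* left out of each total, *Nos3*, *Edn1*, *Ece1* and *Ace* were at 64.4 to 79.6% in H4 beside 65.4% for the markers. In H1 and H2, whose geometric mean of the markers lay within the control range, the range over the 7 genes was 42.9 to 159%. H3 had 5 of the 7 genes below all 4 controls and 1 above them, H4 had 3 below and 1 above, H2 had 1 below and 2 above, and H1 had 1 below and 1 above. Of all tested genes, 68.2% were below and 16.8% above all controls in H3, 49.4% and 24.2% in H4, 12.5% and 34.9% in H2, and 10.4% and 35.8% in H1. The part of the endothelial content of H3 and H4 in the group differences was not tested beyond the values relative to the markers and without H3 that follow.

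**Figure D1:**
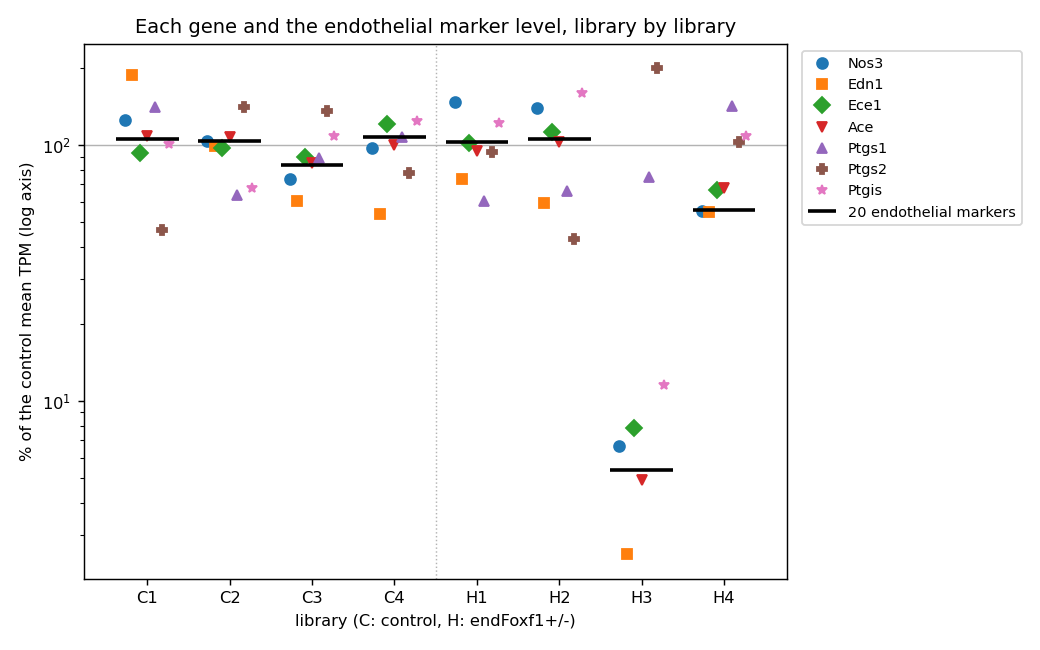
Percent of the control mean TPM (log axis) of each of the 7 genes in each library, with the geometric mean of 20 endothelial markers as a black bar. In H3, *Ptgs1* (75.0%) and *Ptgs2* (199%) lie far above the marker bar at 5.36%, while the other 5 genes lie between 2.51 and 11.5%.

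*Nos3* (chromosome 5, 24364810 to 24384474, plus strand, GRCm38) encodes the nitric oxide synthase of endothelium. Its level was 17.7, 14.7, 10.4 and 13.7 TPM in C1 to C4 and 20.8, 19.6, 0.94 and 7.76 TPM in H1 to H4. H1 and H2 lay above every control library and H3 and H4 below every one, so that the endFoxf1+/- values enclosed the control range. The mean was 14.1 ± 3.02 TPM in control and 12.3 ± 9.59 TPM in endFoxf1+/- (SD, n = 4 each), a log2 difference of -0.67 (SE 0.69, 95% confidence interval -2.22 to 0.88, adjusted p = 0.81 in limma). Relative to the endothelial markers the difference was 0.53 (SE 0.74, adjusted p = 0.57 in limma), and *Nos3* was above every control in 3 of 4 endFoxf1+/- libraries, with H4 inside the control range. On this scale the median difference over all 14964 tested genes was 1.03, above that of *Nos3*, and 14581 of them were higher. The pseudocount also raised the relative value of *Nos3* in H3, which without it was 1.24 times the marker level. By an exact two-sided permutation test the relative difference of *Nos3* had p = 0.0571, where the smallest p it allows for 4 against 4 libraries is 0.0286. Without H3 the log2 difference was 0.09 in TPM (95% confidence interval -0.70 to 0.88) and 0.32 relative to the markers (-0.15 to 0.80), so that the sign of the TPM difference rested on that library.

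The other 26 genes of the nitric oxide list cover cofactor synthesis, arginine supply and the cyclic GMP response. Of the 26 genes of the list that were tested, *Nos3* included, 0 passed the adjusted threshold in limma, and at an unadjusted p under 0.05 there were 2, with *Gucy1a3* lower. The list's median log2 difference was -0.43, beside -0.17 over all tested genes. *Gucy1a3*, the alpha subunit of the guanylate cyclase that nitric oxide activates (now named *Gucy1a1*), was at 14.96, 18.5, 23.7 and 21.3 TPM in control and 12.9, 10.6, 0.85 and 6.91 TPM in endFoxf1+/- libraries. Every endFoxf1+/- library was below every control, including H1 and H2, in which the geometric mean of the endothelial markers was 103% and 106% of the control mean. All 9 platelet markers were also below every control in H1 and in H2, with sums at 47.5% and 37.6% of the control mean, and the pericyte marker *Rgs5* was at 3.71 and 3.73 TPM there against 10.7 to 18.9 TPM in control. Of the 9 pericyte and smooth muscle markers 2 were below and 2 above every control in H1, and 4 were below and 1 above in H2, with *Tagln* above in both libraries (44.3 and 39.7 TPM against 27.9 to 35.4 TPM in control). The log2 difference was -1.54 (SE 0.57, adjusted p = 0.79 in limma) and -0.91 without H3 (95% confidence interval -1.48 to -0.33, adjusted p = 0.55 in limma), and relative to the markers -0.34 (SE 0.76, adjusted p = 0.71 in limma). Relative to the markers and without H3 it was -0.67 (95% confidence interval -1.27 to -0.08, adjusted p = 0.55 in limma). The beta subunit gene *Gucy1b3* was at 10.2 to 18.2 TPM in control and 0.54 to 10.5 TPM in endFoxf1+/- libraries, which overlapped only between C1 and H1. C1 was the lowest control for both subunits and for the summed platelet markers, but the highest for the summed pericyte and smooth muscle markers (100.4 TPM) and for *Rgs5* (18.9 TPM). Platelets and vascular smooth muscle also make this enzyme, and the part of their transcripts in both genes was not tested.

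*Cav1*, the caveolar scaffold that binds and holds back NOS3, was at 1279 to 1579 TPM in control and 264 to 1511 TPM in endFoxf1+/- libraries. In H3 it was at 18.9% of the control mean, above the 5.36% of the endothelial markers. *Gch1*, which starts the synthesis of the NOS3 cofactor tetrahydrobiopterin, was at 9.56 to 11.7 TPM in control and 6.69 to 14.7 TPM in endFoxf1+/- libraries. *Qdpr*, which recycles that cofactor, was at 40.5 to 43.0 TPM in control and 38.0, 37.4, 24.1 and 16.3 TPM in H1 to H4, lower without overlap. Its groups overlapped relative to the markers, with a difference of 0.63 in the other direction (SE 0.83, adjusted p = 0.55 in limma), beside a median of 1.03 over all tested genes. Without H3 the relative difference of *Qdpr* was -0.28. *Slc7a2*, an arginine transporter, was at 1.78 to 2.42 TPM in control and 2.51, 3.03, 11.1 and 2.69 TPM in H1 to H4, higher without overlap, while relative to the markers the groups overlapped.

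*Edn1* (chromosome 13, 42301476 to 42307990, plus strand, GRCm38) encodes the precursor of endothelin-1. The coding stretch of the mature peptide lies in exon 2 and is shown with the codons on both sides of the bond that ECE-1 cuts in capitals (chr13:42303649-42303714, GRCm38, plus strand, codons 53 to 73 and the next one), since it ties the substrate to the protease described next.
Edn1 mature peptide: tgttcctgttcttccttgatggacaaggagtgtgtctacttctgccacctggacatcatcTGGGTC

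*Edn1* was the most variable of the 7 genes among the controls. It was at 319.8, 169, 103 and 91.7 TPM in C1 to C4 and at 125, 101, 4.28 and 93.1 TPM in H1 to H4. C1 held 3.49 times the level of C4, and H1, H2 and H4 lay within the lower part of the control range. The coefficient of variation in control was 61.5%, higher than in 93.7% of the tested genes, whose median was 17.6%. The mean was 171 ± 105 TPM in control and 81.0 ± 52.9 TPM in endFoxf1+/- (SD, n = 4 each), a log2 difference of -1.59 (SE 0.94, 95% confidence interval -3.70 to 0.53, adjusted p = 0.79 in limma). The difference was -0.50 without H3 (95% confidence interval -1.43 to 0.42, adjusted p = 0.79 in limma) and -0.38 relative to the endothelial markers (SE 0.67, adjusted p = 0.64 in limma), with every endFoxf1+/- library inside the control range on the relative scale. Without C1 the relative difference was -0.05. In H3 *Edn1* was at 2.51% of the control mean, the lowest of the 7 genes.

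*Ece1* (chromosome 4, 137862237 to 137965229, plus strand, GRCm38) encodes the membrane metalloprotease that releases endothelin-1. Its zinc-binding pattern H-E-x-x-H, shown as the capital codons with flanking bases, is in exon 17 (chr4:137957157-137957201, GRCm38, plus strand, codons 590 to 594).
Ece1 zinc site: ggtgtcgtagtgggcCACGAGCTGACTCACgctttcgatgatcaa

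*Ece1* was at 563, 587, 544 and 732 TPM in C1 to C4 and at 619, 682, 47.6 and 403 TPM in H1 to H4. H1 and H2 were within the control range and H3 and H4 below it. The mean was 607 ± 85.5 TPM in control and 438 ± 286 TPM in endFoxf1+/- (SD, n = 4 each), a log2 difference of -0.999 (SE 0.74, adjusted p = 0.79 in limma) that was -0.12 without H3 (95% confidence interval -0.62 to 0.38). The difference relative to the markers was 0.20 (SE 0.64, adjusted p = 0.79 in limma).

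Of the 11 genes of the endothelin list 7 were tested, 0 of which passed the adjusted threshold in limma and 1 of which, *Ednrb*, had an unadjusted p under 0.05. *Edn2*, *Edn3*, *Ecel1* and *Kel* did not pass the filter. *Ednrb*, the endothelin receptor of endothelial cells, was at 108, 172, 234 and 282 TPM in C1 to C4 and 97.0, 115, 8.87 and 106 TPM in H1 to H4. The groups overlapped only through C1, the control library with the highest *Edn1* and the lowest *Ednrb*. The log2 difference was -1.68 (SE 0.75, adjusted p = 0.79 in limma), -0.82 without H3 (95% confidence interval -1.52 to -0.12, adjusted p = 0.67 in limma) and -0.47 relative to the markers (SE 0.66, adjusted p = 0.56 in limma). *Ednra*, the constrictor receptor of smooth muscle, was at 2.22 to 4.20 TPM in control and 1.69 to 3.01 TPM in endFoxf1+/- libraries. *Mme* (neprilysin), which degrades endothelin and bradykinin, was at 14.3 to 57.2 TPM in control and 3.04 to 154.8 TPM in endFoxf1+/- libraries, highest in C3 and in H4, the libraries with the highest epithelial marker sums in their groups, and the part of epithelial transcripts in it was not tested.

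**Figure D2:**
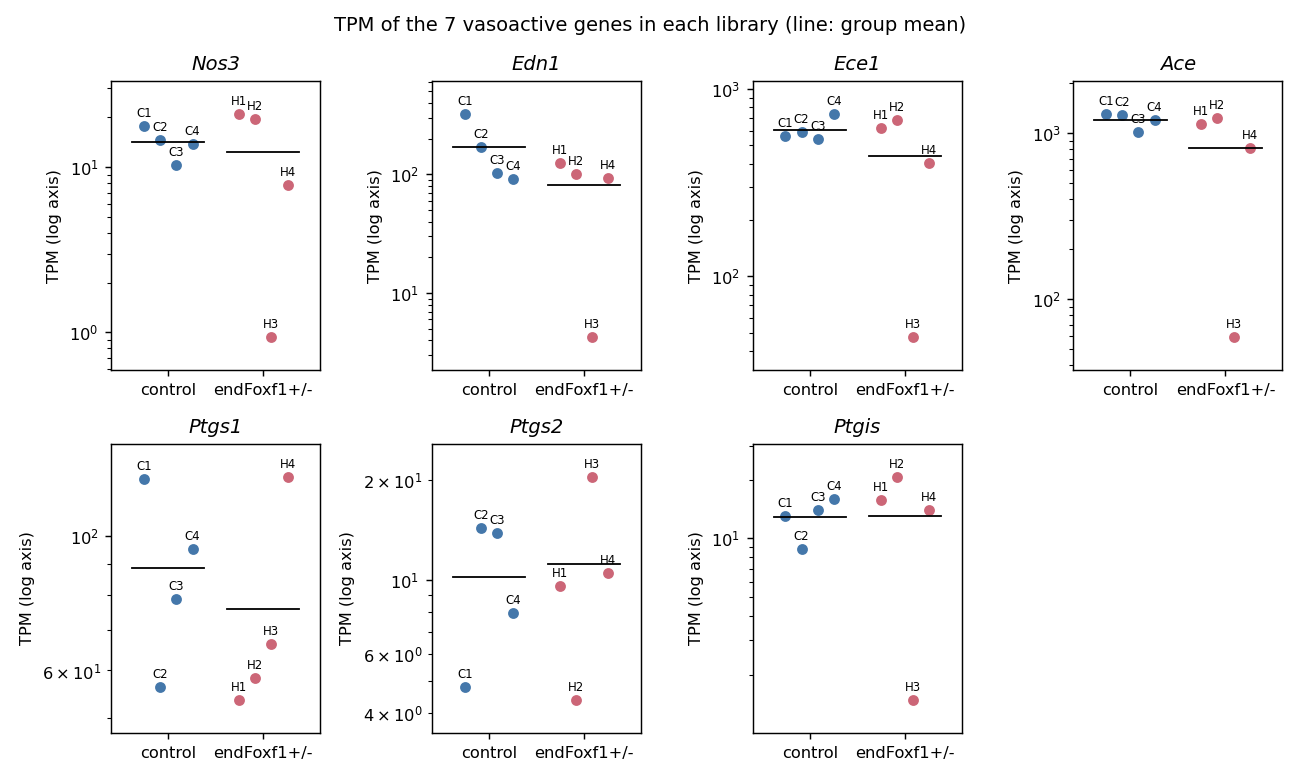
TPM (log axis) of the 7 genes in each of the 4 control and 4 endFoxf1+/- libraries, with each point labelled by its library and a line at the arithmetic group mean. H3 is the lowest library for *Nos3* (0.94 TPM), *Edn1* (4.28), *Ece1* (47.6), *Ace* (59.2) and *Ptgis* (1.49), and the highest for *Ptgs2* (20.4).

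*Ace* (chromosome 11, 105967945 to 105989964, plus strand, GRCm38) was the most abundant of the 7 genes and among the most abundant transcripts of these cells, above 99.3% of the tested genes by its control mean. The enzyme has a pair of catalytic domains, and the zinc-binding pattern of each was found in the coding sequence, in exon 8 (chr11:105972895-105972939, codons 395 to 399) and exon 20 (chr11:105985079-105985123, codons 993 to 997), both GRCm38 and plus strand. They are shown with the pattern in capitals beside that of *Ece1* above, which belongs to another protease family but carries the same motif.
Ace first zinc site: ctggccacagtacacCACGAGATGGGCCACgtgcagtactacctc
Ace second zinc site: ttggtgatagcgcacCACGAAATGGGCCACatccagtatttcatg

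*Ace* was at 1301, 1297, 1021 and 1201 TPM in C1 to C4 and at 1135, 1239, 59.2 and 819 TPM in H1 to H4. H1 and H2 were within the control range and H3 and H4 below it. The mean was 1205 ± 131 TPM in control and 813 ± 533 TPM in endFoxf1+/- (SD, n = 4 each). It had the smallest spread of the 7 genes among the controls, with a coefficient of variation of 10.9% beside a median of 14.8% for the 20 endothelial markers. The log2 difference was -1.22 (SE 0.86, 95% confidence interval -3.16 to 0.71, adjusted p = 0.79 in limma) and -0.19 without H3 (-0.66 to 0.27). Relative to the markers it was -0.02 (SE 0.66, adjusted p = 0.98 in limma), with overlap between the groups. When the percent of the control mean of *Ace* in a library was divided by that of the markers, the quotient was 0.92 to 1.22 in the single libraries, and 0.92 in H3.

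Of the 22 genes of the angiotensin and kinin list 12 were tested, 0 of which passed the adjusted threshold in limma. At an unadjusted p under 0.05 there was 1, *Ren1*, which encodes renin, at 2.93 to 4.43 TPM in control and 0.39 to 2.98 TPM in endFoxf1+/- libraries. Its log2 difference was -0.86 in TPM (adjusted p = 0.79 in limma). Relative to the markers it was 0.35 (SE 0.89, adjusted p = 0.75 in limma), beside a median of 1.03 over all tested genes, and -0.32 without H3. *Agt*, the precursor that renin cuts, reached at most 0.04 TPM in control libraries and *Agtr1a*, the main constrictor receptor of angiotensin II, at most 1.73 TPM, and neither gene was tested. *Agt* was highest in H4, at 1.17 TPM. *Lnpep*, an aminopeptidase that degrades vasopressin and binds angiotensin IV, was at 30.8 to 36.7 TPM in control and 41.3, 43.9, 42.8 and 52.6 TPM in H1 to H4, higher without overlap. Its log2 difference was 0.41 (SE 0.19, adjusted p = 0.79 in limma).

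*Ptgs1* (chromosome 2, 36230426 to 36252272, plus strand, GRCm38) encodes the constitutive cyclooxygenase, which endothelium shares with platelets and myeloid cells. It was at 124, 56.4, 78.8 and 95.1 TPM in C1 to C4 and at 53.7, 58.3, 66.5 and 125 TPM in H1 to H4. The ranges nearly coincided, with H1 just below the lowest control and H4 just above the highest. The mean was 88.6 ± 28.5 TPM in control and 76.0 ± 33.3 TPM in endFoxf1+/- (SD, n = 4 each), a log2 difference of -0.25 (SE 0.34, 95% confidence interval -1.01 to 0.51, adjusted p = 0.84 in limma). Relative to the endothelial markers it was 0.95 (SE 0.87, adjusted p = 0.47 in limma) with H3 and 0.02 (95% confidence interval -1.12 to 1.16) without it. The percent of its control mean, divided by that of the markers in the same library, was 0.59 in H1 and 0.62 in H2, against 14 in H3 and 2.53 in H4.

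*Ptgs2* (chromosome 1, 150100031 to 150108227, plus strand, GRCm38) encodes the inducible cyclooxygenase. It was at 4.77, 14.3, 13.9 and 7.97 TPM in C1 to C4 and at 9.61, 4.39, 20.4 and 10.5 TPM in H1 to H4. H3 was the highest and H2 the lowest of all 8 libraries. The mean was 10.2 ± 4.66 TPM in control and 11.2 ± 6.67 TPM in endFoxf1+/- (SD, n = 4 each), a log2 difference of 0.06 (SE 0.47, 95% confidence interval -0.99 to 1.11, adjusted p = 0.98 in limma) that was -0.26 without H3. Relative to the endothelial markers it was 1.27 (SE 1.08, adjusted p = 0.47 in limma), the largest of the 7 genes, and -0.03 without H3 (95% confidence interval -1.27 to 1.21). The percent of the control mean of *Ptgs2* in H3 was 37.2 times that of the markers. All 13 myeloid markers were highest in that library, as were 5 of 8 fibroblast and 8 of 10 lymphocyte markers, and their part in the *Ptgs1* and *Ptgs2* values was not tested. Platelet markers moved the other way, with 8 of 9 lowest in H3.

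*Ptgis* (chromosome 2, 167191805 to 167240604, minus strand, GRCm38) encodes prostacyclin synthase. It was at 13.03, 8.81, 13.97 and 16.01 TPM in C1 to C4 and at 15.8, 20.7, 1.49 and 14.02 TPM in H1 to H4. H2 was above every control, H1 and H4 were within the control range, and H3 was far below it. The mean was 12.95 ± 3.03 TPM in control and 12.99 ± 8.16 TPM in endFoxf1+/- (SD, n = 4 each), a log2 difference of -0.34 (SE 0.62, adjusted p = 0.88 in limma) that became 0.36 without H3 (95% confidence interval -0.18 to 0.91, adjusted p = 0.78 in limma). Relative to the markers it was 0.86 (SE 0.76, adjusted p = 0.47 in limma), above every control in 3 of 4 libraries, with p = 0.0571 by an exact two-sided permutation test. The median over all tested genes on this scale was 1.03, above that of *Ptgis*, with 14581 of 14964 genes higher. The percent of the control mean of *Ptgis* was 2.15 times that of the markers in H3 and 1.94 times in H4.

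**Figure D3:**
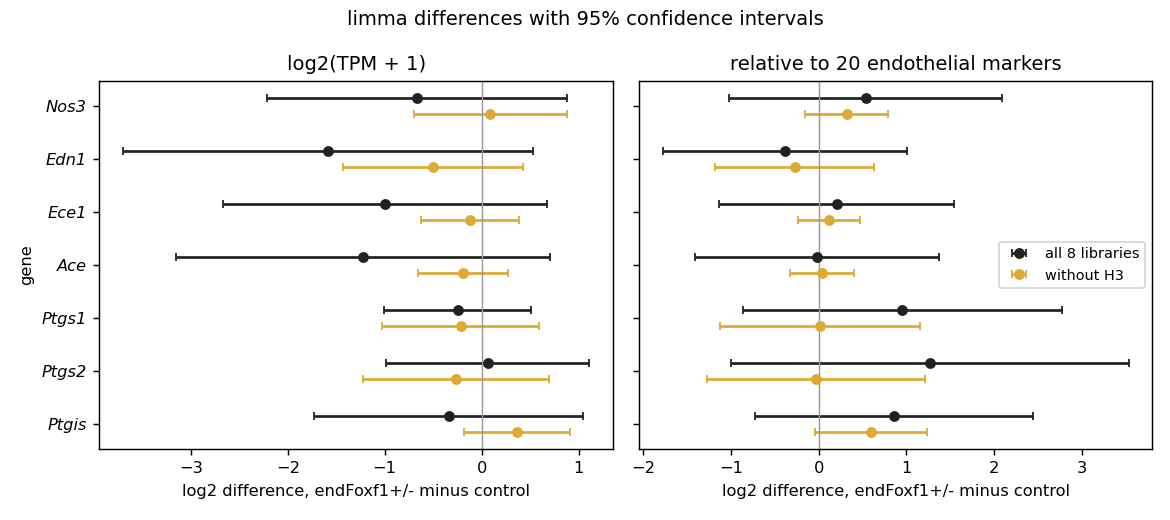
Log2 difference of each gene, endFoxf1+/- minus control, with 95% confidence intervals from limma, for log2(TPM + 1) (left) and relative to 20 endothelial markers (right), with all 8 libraries (black) and without H3 (yellow). Every interval includes 0, and leaving out H3 moves *Edn1* from -1.59 to -0.50 and *Ace* from -1.22 to -0.19 in TPM.

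Of the 25 genes of the prostanoid list 18 were tested, 0 of which passed the adjusted threshold in limma. At an unadjusted p under 0.05 there was 1, *Hpgd*, the dehydrogenase that inactivates prostaglandins and the only gene of the 4 lists that was lower without overlap on both scales. *Hpgd* was at 1200, 1316, 1282 and 1506 TPM in C1 to C4 and at 340.1, 649, 45.0 and 176 TPM in H1 to H4. Every endFoxf1+/- library held less than 50% of the control mean, including H1 at 25.7% and H2 at 48.9%, where the geometric mean of the endothelial markers was 103% and 106%. The log2 difference was -2.68 (SE 0.69, 95% confidence interval -4.22 to -1.14, unadjusted p = 0.0032, adjusted p = 0.79 in limma). It was -1.48 relative to the markers (SE 0.67, unadjusted p = 0.040, adjusted p = 0.47 in limma), and -1.96 in TPM without H3 (95% confidence interval -2.84 to -1.08, adjusted p = 0.40 in limma). The exact two-sided permutation test gave 0.0286, the smallest p it allows, on both scales. With limma array weights, which give H3 and H4 the least weight, the adjusted p of *Hpgd* was 0.029 and 148 genes were called.

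*Slco2a1*, the transporter that takes prostaglandins into cells for inactivation, was at 765 to 922 TPM in control and 744, 954, 50.1 and 292 TPM in H1 to H4, or 86.5% of its control mean in H1 and 111% in H2. *Ptges*, the inducible prostaglandin E synthase, was at 9.52 to 21.2 TPM in control and 19.3, 7.50, 59.4 and 29.5 TPM in H1 to H4, highest in H3 as was *Ptgs2*. *Tbxas1*, which makes the constrictor thromboxane in platelets and macrophages, was at 22.1 to 44.7 TPM in control and 19.7 to 45.6 TPM in endFoxf1+/- libraries. *Tbxa2r*, the thromboxane receptor, was at 21.6 to 34.3 TPM in control and 32.0, 22.9, 1.43 and 4.68 TPM in H1 to H4. *Pla2g4a*, which frees arachidonic acid, ranged from 11.8 to 18.0 TPM in control and 9.62 to 18.4 TPM in endFoxf1+/- libraries, and *Ptgir*, the prostacyclin receptor, was too low to be tested (at most 1.33 TPM in control). *Akr1b3*, an aldose reductase with prostaglandin F synthase activity, was lower without overlap (179 to 212 TPM against 113 to 169 TPM), and *Abcc4*, a prostaglandin exporter, was higher without overlap (3.504 to 4.367 TPM against 4.371 to 6.605 TPM). The adjusted p in limma was 0.79 for both. For both genes the groups overlapped relative to the markers, and the difference was 0.81 for *Akr1b3* (SE 0.82, adjusted p = 0.48 in limma), opposite to that in TPM, and 1.58 for *Abcc4* (SE 0.99, adjusted p = 0.47 in limma). The median over all tested genes on this scale was 1.03. Without H3 the relative difference was -0.15 for *Akr1b3* and 0.56 for *Abcc4*.

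**Figure D4:**
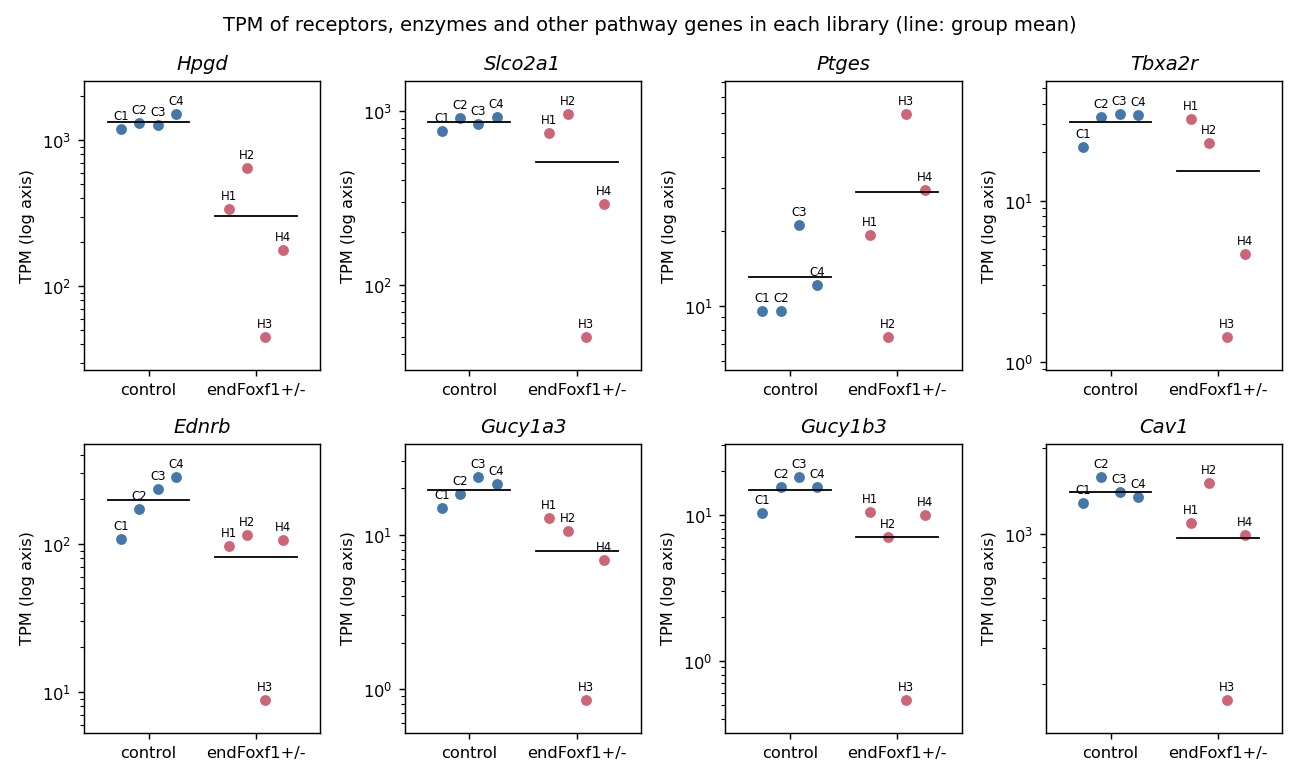
TPM (log axis) of 8 receptors, enzymes and other pathway genes next to the 7 genes in each library, with a line at the arithmetic group mean. For *Hpgd* the highest endFoxf1+/- library (H2, 649 TPM) is below the lowest control (C1, 1200 TPM), and the same holds for *Gucy1a3* (H1 at 12.9 against C1 at 14.96 TPM), while *Slco2a1* in H1 and H2 (744 and 954 TPM) is near its control levels.

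Over the 4 lists together 63 of 85 genes were tested, 43 with a lower and 20 with a higher mean log2 level in endFoxf1+/- libraries, beside 10182 lower and 4782 higher of all 14964 tested genes. Relative to the markers 8 of the 63 were lower and 55 higher, beside 383 lower and 14581 higher of all tested genes. The median log2 difference of the 63 genes was -0.24, beside -0.17 over all tested genes, and relative to the markers it was 0.96 beside 1.03. For the 7 genes themselves the medians were -0.67 and 0.53.

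In the control libraries the order of levels, by mean TPM, was *Ace*, *Ece1*, *Edn1*, *Ptgs1*, *Nos3*, *Ptgis* and *Ptgs2*, which can be compared because TPM are already per length. The control ranges were apart between *Ace* and *Ece1*, between *Ece1* and *Edn1*, and between *Ptgs1* and *Nos3*, and in these 3 pairs the higher gene was higher in 4 of 4 control and 4 of 4 endFoxf1+/- libraries. *Edn1* and *Ptgs1* overlapped, with *Edn1* higher in 3 control and 2 endFoxf1+/- libraries. *Nos3*, *Ptgis* and *Ptgs2* were all between 4.77 and 17.7 TPM in control, and neighbours among them overlapped.

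Ratios within a library compare a pair of genes whatever the library's endothelial content, as far as both are endothelial. The 5 ratios chosen were of opposed or consecutive steps, and none separated the groups. The ratio of *Edn1* to *Nos3*, constrictor to dilator, was 18.1, 11.5, 9.91 and 6.68 in C1 to C4 and 6.01, 5.17, 4.56 and 12.0 in H1 to H4, as a quotient of TPM. H1, H2 and H3 were below every control, and H4 was above 3 of them. The mean log2 ratio of (TPM + 1) was 3.35 ± 0.60 in control and 2.43 ± 0.81 in endFoxf1+/- (SD, n = 4 each), a difference of -0.92 (exact two-sided permutation test, p = 0.11) that was -0.59 without H3 (p = 0.23 by the same exact test).

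The ratio of *Ece1* to *Edn1*, protease to substrate, differed by 0.59 on the log2 scale (exact two-sided permutation test, p = 0.34), and by 0.38 without H3 and 0.20 without C1. That of *Ace* to *Ece1* differed by -0.23 (p = 0.29 by the exact test), and by -0.07 without H3. *Ptgis* to *Ptgs1*, the later to the earlier step of prostacyclin synthesis, was 0.10, 0.16, 0.18 and 0.17 in C1 to C4 and 0.29, 0.35, 0.022 and 0.11 in H1 to H4, with H1 and H2 above every control and H3 below every one. Its log2 difference was -0.09 with all libraries (p = 1.0 in the exact permutation test) and 0.58 without H3 (p = 0.23 by the exact test). *Ptgs2* to *Ptgs1* differed by 0.31 (p = 0.63 by the exact test) and by -0.05 without H3. These p-values were not adjusted over the 5 ratios.

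**Figure D5:**
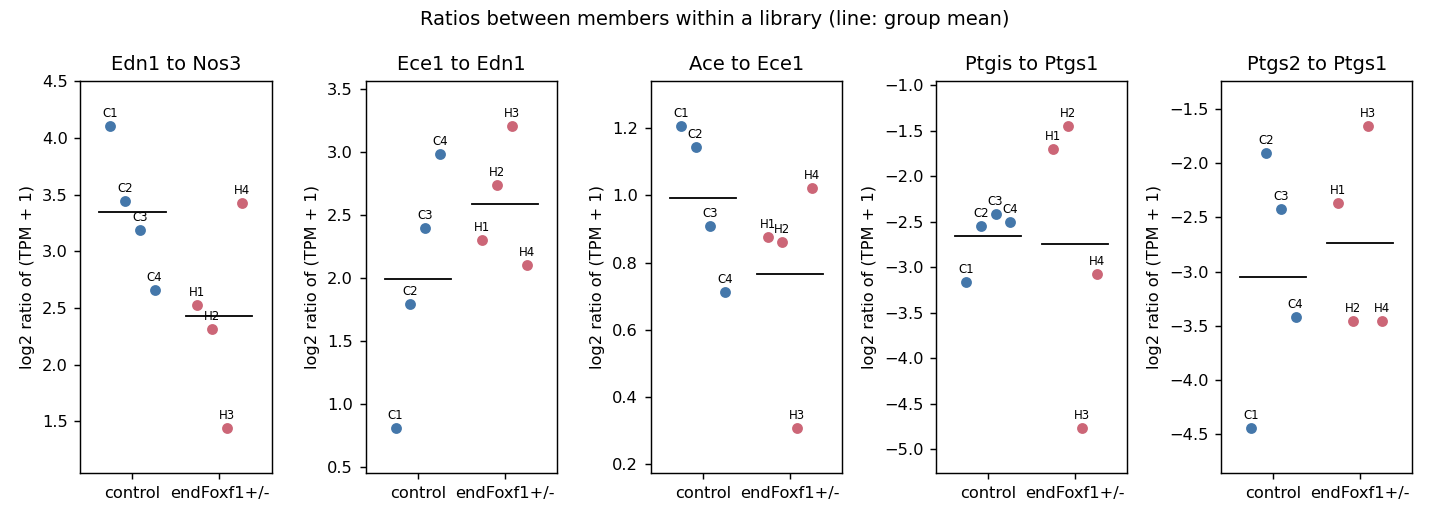
Log2 ratio of (TPM + 1) between pairs of the 7 genes in each library, with a line at the group mean. *Edn1* to *Nos3* averages 3.35 in control and 2.43 in endFoxf1+/- with H4 among the controls, and H3 is the highest or the lowest of the 8 libraries in all 5 ratios.

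As a description, the level of each gene on the log2 scale was correlated with those of the 20 endothelial markers over the 8 libraries, which share the spread set by H3. The median Pearson r was 0.99 for *Ece1* and *Ace*, 0.96 for *Nos3*, 0.93 for *Edn1* and 0.92 for *Ptgis*, against 0.10 for *Ptgs1* and -0.63 for *Ptgs2*. Over the 7 libraries without H3 it was 0.86 for *Ace*, 0.82 for *Nos3* and 0.80 for *Ece1*, but 0.32 for *Edn1* and 0.067 for *Ptgis*, and it was -0.39 for *Ptgs1* and -0.33 for *Ptgs2*. The tested genes most like each gene over the 8 libraries were *Fzd4*, *Ptprb* and *Clic5* for *Ace* (r = 0.9996, 0.9992 and 0.9988), and *Pitpnm2*, *Tmtc1* and *Pllp* for *Ece1* (r = 0.9987, 0.9981 and 0.998). They were *Add1*, *Pcdhga7* and *Pex26* for *Nos3* (0.9982 to 0.9954), *Ddx5*, *Ntrk2* and *Olfr56* for *Edn1* (0.9916 to 0.9891), and *Acot6*, *Styx* and *Gm45880* for *Ptgis* (0.9953 to 0.9877). For *Ptgs1* the closest were *Mtx2*, *Cc2d2b* and *Arhgef28* (0.8992 to 0.8906), and for *Ptgs2* they were *Mapkapk2*, *Dlg2* and *Igsf8* (0.9563 to 0.9207). Without H3 the r of these 21 pairs of genes was 0.8864 to 0.9883.

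Promoter windows of 300 bases around the gene start were given by RefSeq (GRCm38.p6) for 5 of the 7 genes, *Edn1*, *Ece1*, *Ace*, *Ptgs1* and *Ptgs2*, in 9 windows. The forkhead core TGTTTA, searched on both strands, was in 0 of these 9 windows and in 13.4% of all 32851 windows of the table.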

How the data were processed

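For each of the 8 libraries the authors deposited TPM per gene symbol, which sum to 1000000 in every library. The submitters' processing notes name TopHat, Cufflinks, Subread and DESeq2 and the builds GRCm38 and mm10 without their roles, and the annotation behind the TPM is not given in the sources used here. DESeq2 needs read counts and was not repeated. Groups were taken from the genotype label. The labels do not say whether each library came from a separate mouse. The paper gives fewer biological replicates per group for its RNA-seq plot than the 4 libraries used here, so p-values measure the spread between these libraries, which may be technical in part.

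TPM were used as deposited. A gene entered the test if 4 or more libraries had 1 TPM or more (14964 genes), on log2(TPM + 1) with limma 3.58.1 in R 4.3.3 (trend, Benjamini-Hochberg, threshold 0.05). In TPM the pseudocount of 1 understates changes of low genes. A second fit used values minus the mean log2(TPM + 1) of 20 endothelial markers. On this relative scale the pseudocount lifts low genes in a library with low markers. In H3 *Nos3* was 1.18 and *Ptgis* 1.66 above the control mean on the log2 scale. Without a pseudocount their percents of the control mean were a smaller 1.24 and 2.15 times that of the markers. Single values were compared by exact two-sided permutation tests, over 70 assignments with all 8 libraries and fewer without H3. Without H3 even *Hpgd* in TPM, whose groups did not overlap, had p = 0.0571 by this exact test. Percents of the control mean are of TPM without a pseudocount. Coordinates are from GENCODE vM21. The coding stretches were read from its transcripts with coordinates of the same annotation. The fit was tested on simulated data.

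The 7 genes and all lists were chosen with earlier results of these data known. Named pathway genes are those with an unadjusted p under 0.05 in either fit or no overlap in TPM, and receptors, substrates and degrading enzymes of the 7. For likeness the 3 genes of highest Pearson r per gene are named. Lists are described by counts and medians, and some of their genes are not reported here. Alternatives were another pseudocount, another filter, quantile and median-ratio scaling, no trend, array weights, totals without *Gm20594* (added after the data were seen), each library left out, libraries H1 and H2 alone, and 3 other endothelial references.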

Additional observations from a re-analysis of the deposited data

Results flagged for a closer look

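In 40 groups of 4 values, Dixon's test at the 95% level marked 4 where the most extreme library lay far from the others, and chance marks about 1 in 20 groups. In endFoxf1+/- libraries, H3 was marked for *Edn1* at 2.40 on the log2(TPM + 1) scale (the others 6.56 to 6.98), for *Ace* at 5.91 (the others 9.68 to 10.28) and for *Ptgis* at 1.32 (the others 3.91 to 4.44). *Nos3* and *Ece1*, which were also lowest in H3, were not marked, since H4 was low too. In control libraries, C3 was marked for the mean log2 level of the 20 endothelial markers, at 8.39 (the others 8.69 to 8.75), which enters every value relative to these markers. C3 also held the highest epithelial marker sum of the controls. The cause was not tested.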

How the results depend on the processing

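Under 266 alternative fits of the 7 genes, 0 gave an adjusted p under 0.05 in limma (the lowest was 0.31), and 20 turned the sign of the difference. The number of genes called in TPM was 0 with all libraries, 148 with array weights, 3 with H1 and H2 only (*C1qa*, *Esr1*, *Gm6851*) and 0 to 1 with a library left out (*Rpl3-ps1* without C1, *Esr1* without H3). On the scale relative to the markers it was 1, and 9 with a pseudocount of 5, 17 without a filter, 2 with H1 and H2 only and 1 to 2 with a library left out. Array weights could not be fitted on the relative scale. The median log2 difference of all genes was -0.17 in TPM, -0.01 after quantile scaling and -0.02 after median-ratio scaling, so that differences in TPM are read against it. With array weights the difference in TPM was 0.46 for *Nos3*, 8.6e-05 for *Ece1*, 0.43 for *Ptgis*, -0.38 for *Ptgs2*, 0.26 for *Gch1* and 0.21 for *Pla2g4a*. With H1 and H2 only it was 0.51 for *Nos3*, 0.11 for *Ece1*, 0.48 for *Ptgis*, -0.46 for *Ptgs2*, 0.27 for *Gch1*, 0.25 for *Pla2g4a* and -0.031 for *Ptges*, and relative to the markers -0.66 for *Ptgs1*, -0.53 for *Ptgs2*, -0.26 for *Akr1b3*, -0.19 for *Cav1*, -0.25 for *Ednra*, -0.73 for *Mme*, -0.10 for *Ptges*, -0.19 for *Qdpr* and -0.39 for *Ren1*. Median-ratio scaling gave 0.011 for *Gch1* and 0.13 for *Pla2g4a*, and quantile scaling 0.087 for *Pla2g4a* and, relative to the markers, 0.044 for *Ace*, for which the median of the markers gave 0.038. Relative to the markers a pseudocount of 5 gave 0.083 for *Gucy1a3* and 0.31 for *Gucy1b3*, and one of 0.1 gave -0.075 for *Ren1*. The log2 ratio of *Ptgis* to *Ptgs1* differed by 0.088 with a pseudocount of 5 and by 1.08 with H1 and H2 only.

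With each library left out in turn, the TPM difference ran from -1.08 to 0.087 for *Nos3*, -0.68 to 0.36 for *Ptgis*, -0.26 to 0.40 for *Ptgs2*, -1.31 to 0.44 for *Mme* and -0.17 to 0.12 for *Pla2g4a*. Relative to the markers it ran from -0.12 to 0.039 for *Ace*, -0.029 to 2.03 for *Ptgs2*, -0.15 to 1.17 for *Akr1b3*, -0.012 to 0.69 for *Cav1*, -0.40 to 0.21 for *Gucy1b3*, -0.28 to 0.99 for *Qdpr*, -0.32 to 0.61 for *Ren1* and -0.69 to 0.0025 for *Tbxa2r*. The ratio of *Ptgs2* to *Ptgs1* ran from -0.15 to 0.69, and that of *Ptgis* to *Ptgs1* from -0.52 to 0.58. The cause of these turns was not tested, beyond the libraries named. No paired analysis was possible because the labels give the groups no shared replicate numbers.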
